A study of Mus musculus with 6 samples.

Results

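The genes described here are the cyclins and cyclin-dependent kinases of the mouse heart other than cyclin C (Ccnc) and its kinases Cdk8 and Cdk19. They were chosen by symbol, as rows named Ccn plus a letter and an optional number, or Cdk plus a number, without those 3 genes. Earlier results of these data were known when that choice was made. The rule took 39 of 24315 rows, 23 cyclins and 16 kinases. For this report 15 were grouped by known role as cell-cycle members and 10 as transcriptional members. The 14 left were grouped as members with other roles. Whole hearts of 6 male mice on a C57Bl6J background, aged 6 weeks, had their RNA sequenced, 1 library per mouse, so p-values reflect the spread between animals. In 3 mice (cKO) both alleles of cyclin C were floxed and an aMHC cre transgene was present, in which the alpha myosin heavy chain promoter drives Cre recombinase in cardiomyocytes. The 3 others (fl/fl) carried the same floxed alleles and no Cre. The deletion and the presence of Cre therefore cannot be told apart, and other heart cells keep the gene. Levels are in FPKM, fragments scaled by transcript length and by library size, so they can be compared between genes.

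Cyclins are regulatory subunits that switch on cyclin-dependent kinases. D cyclins with Cdk4 and Cdk6 phosphorylate the retinoblastoma protein and release E2F factors, cyclin E with Cdk2 starts DNA replication, and cyclins A and B with Cdk1 carry the cell through mitosis. A separate branch of the family works on RNA polymerase II and does not oscillate with division: cyclin H with Cdk7, the T cyclins with Cdk9, cyclin K with Cdk12 and Cdk13, and cyclin C with Cdk8 or Cdk19 in the Mediator complex. Most adult cardiomyocytes have left the cell cycle, and dividing cells in the heart are mainly of other types.

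The targeted gene was lower in the cKO libraries. Ccnc read 5.81, 5.70 and 4.53 FPKM in cKO 1 to 3, against 8.48, 7.60 and 10.8 FPKM in fl/fl 1 to 3, without overlap, but limma, the linear model fitted to all genes, did not call it (adjusted p = 0.144). The Ccnc row shares a stretch with Tstd3, so its reads may not be fully separable. Cdk8 read 8.29 to 10.3 FPKM in cKO and 8.17 to 10.3 FPKM in fl/fl, and Cdk19 7.61 to 7.89 FPKM in cKO and 6.97 to 8.65 FPKM in fl/fl. Read numbers are not given in the files; from the steps between low values, depth relative to fl/fl 1 ran from 0.883 to 1.09. All 8 cardiomyocyte markers examined were present, with summed levels of 39960 to 44840 FPKM in cKO and 61600 to 83290 FPKM in fl/fl. Actc1 alone among them lay higher in cKO. Some libraries stood apart. The 11 thymocyte and lymphocyte markers summed to 123 FPKM in fl/fl 1, while the other 5 libraries held 1.88 to 6.15 FPKM, and the 4 adipocyte markers to 389.4 FPKM in fl/fl 1, while the highest sum elsewhere was 16.9 FPKM. The 4 lung epithelium markers summed to 18.3 FPKM in fl/fl 2, while fl/fl 1 held 4.08 FPKM and the other libraries 0.353 FPKM or less. The 8 clock genes summed to 85.3 FPKM in cKO 3 and 119.1 FPKM in fl/fl 3, against at least 269.7 FPKM in the other libraries.

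Cyclin G1 (Ccng1), a target of p53, stood far above the rest at 507.9 ± 19.0 FPKM in cKO and 451.05 ± 17.5 FPKM in fl/fl (SD, n = 3 each), higher in fl/fl than 97.9% of the tested genes. In fl/fl the next were Ccni at 86.2 ± 11.8 FPKM and the PCTAIRE kinase Cdk16 at 76.3 ± 8.02 FPKM, whose ranges overlapped, followed by Ccnl2 and Cdk4 at 48.2 ± 5.68 and 47.9 ± 2.92 FPKM, which also overlapped, and Ccny at 42.1 ± 0.243 FPKM. Among cell-cycle members, the G1 machinery was the abundant part: Cdk4 and the 3 D cyclins read 16.4 FPKM or more in every library. The transcriptional members lay closer together, with means in fl/fl from 4.08 FPKM for Cdk12 to 48.2 FPKM for Ccnl2. At the bottom, Ccnb3, the testis-enriched cyclin Ccna1 and Cdk15 were listed at 0.01 FPKM, the lowest value in the file, in 5, 3 and 5 of 6 libraries.

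**Figure D1:**
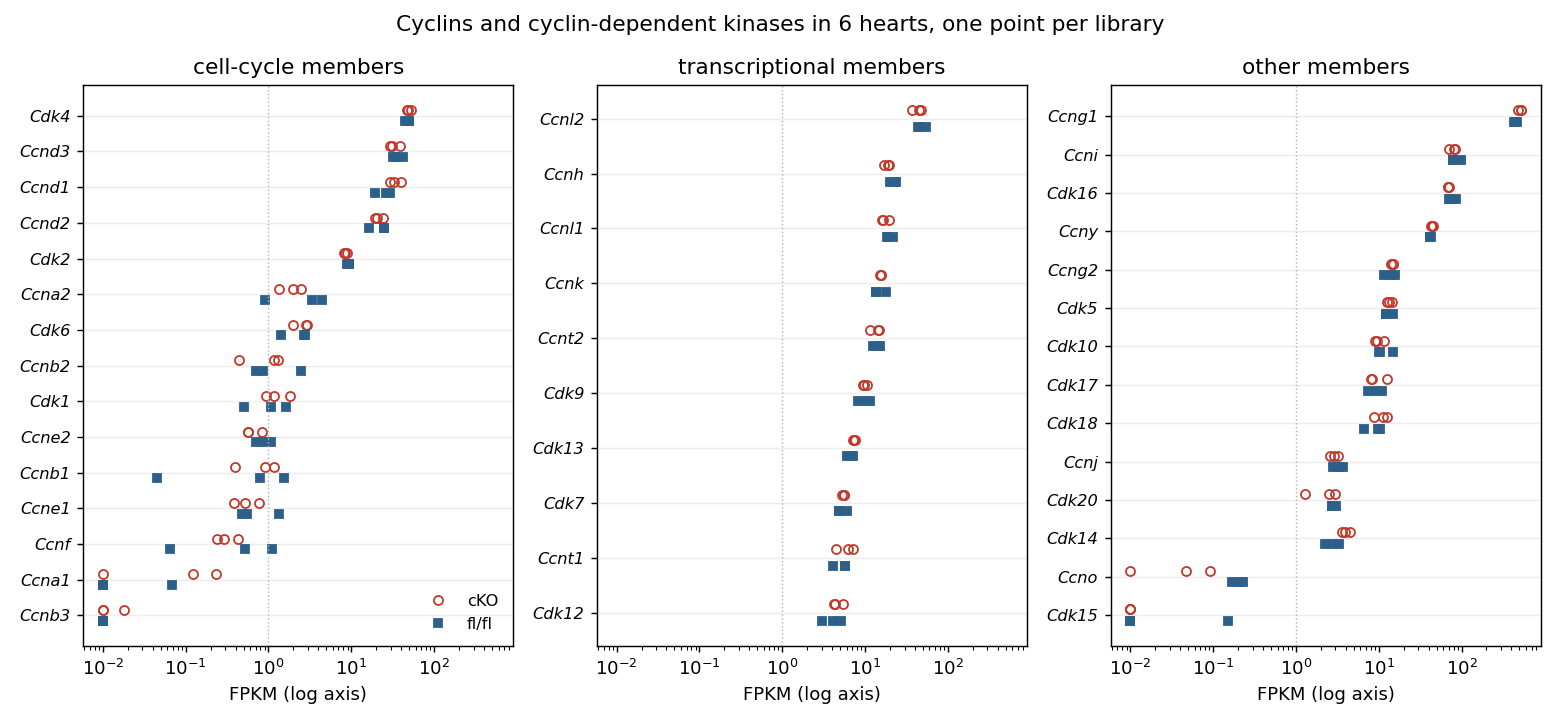
FPKM (log axis) of all 39 members in each of the 6 libraries, by role and sorted by mean level in fl/fl; open red circles are cKO and filled blue squares fl/fl, and the dotted line marks 1 FPKM. Ccng1 lies above all others at 433.6 to 521.95 FPKM, and most members below 1 FPKM are cell-cycle genes.

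No member passed the test between cKO and fl/fl. Differences were tested with limma on log2(FPKM + 1), a scale that understates the change of low genes, over the 12103 genes whose mean over the 6 libraries reached 1 FPKM. Of the 39 members 31 met that filter; Ccnb2 and Cdk1 lay just inside it with means of 1.15 and 1.197 FPKM, and Ccne2, Ccnb1, Ccne1, Ccnf, Ccno, Ccna1, Cdk15 and Ccnb3 lay below it. Limma called 0 of the 31 at an adjusted p under 0.05, where it called 0.587% of all genes tested (0.364% higher and 0.223% lower in cKO). At an unadjusted p under 0.05 it took 3 of the 31, Cdk14, Ccnd1 and Ccnh, against 12.7% of all genes tested. The authors' deposited table tested 32 members and called 0 at its q-value of 0.05, against 3.77% of its tested genes. The lowest q-value among members in the authors' deposited table was 0.052, for Ccnd1.

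The groups did not overlap for 7 of the 31 tested members, 22.6%, near the 20.4% of all genes tested. In cKO, Ccng1, Ccny, Cdk13 and Cdk14 lay above fl/fl (10.1% of all genes did), and Ccnh, Cdk16 and Cdk2 below (10.3% of all genes did). On the log2(FPKM + 1) scale most changes were bounded within 2-fold, as they were for most genes. The unadjusted 95% interval of the log2 change lay within 1 of 0, that is within a 2-fold change on this scale, for 30 of the 31 members, against 94.3% of all genes tested. Ccna2 was the exception, with an interval of -1.14 to 0.55. For low members the width depends on the pseudocount. With 0.1 in place of 1, the standard error was 0.457 against 0.252 for Cdk1, and 0.561 against 0.313 for Ccnb2. The 8 members below the filter have no interval.

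Cell-cycle and transcriptional members are set side by side as counts and medians. Of the 9 tested cell-cycle members 4 had a positive and 5 a negative log2 change, with a median of -0.023 and a range of -0.30 to 0.45. All 10 transcriptional members were tested, 6 positive and 4 negative, with a median of 0.039 and a range of -0.25 to 0.18. The 12 tested members with other roles had 7 positive and 5 negative signs and a median of 0.047. Over all genes tested the median was -0.002 and 49.6% were positive. The median standard error was 0.18 for cell-cycle and 0.12 for transcriptional members, and 0.13 over all genes. Without fl/fl 1 the medians were 0.073, 0.002 and 0.026 for cell-cycle, transcriptional and other members.

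**Figure D2:**
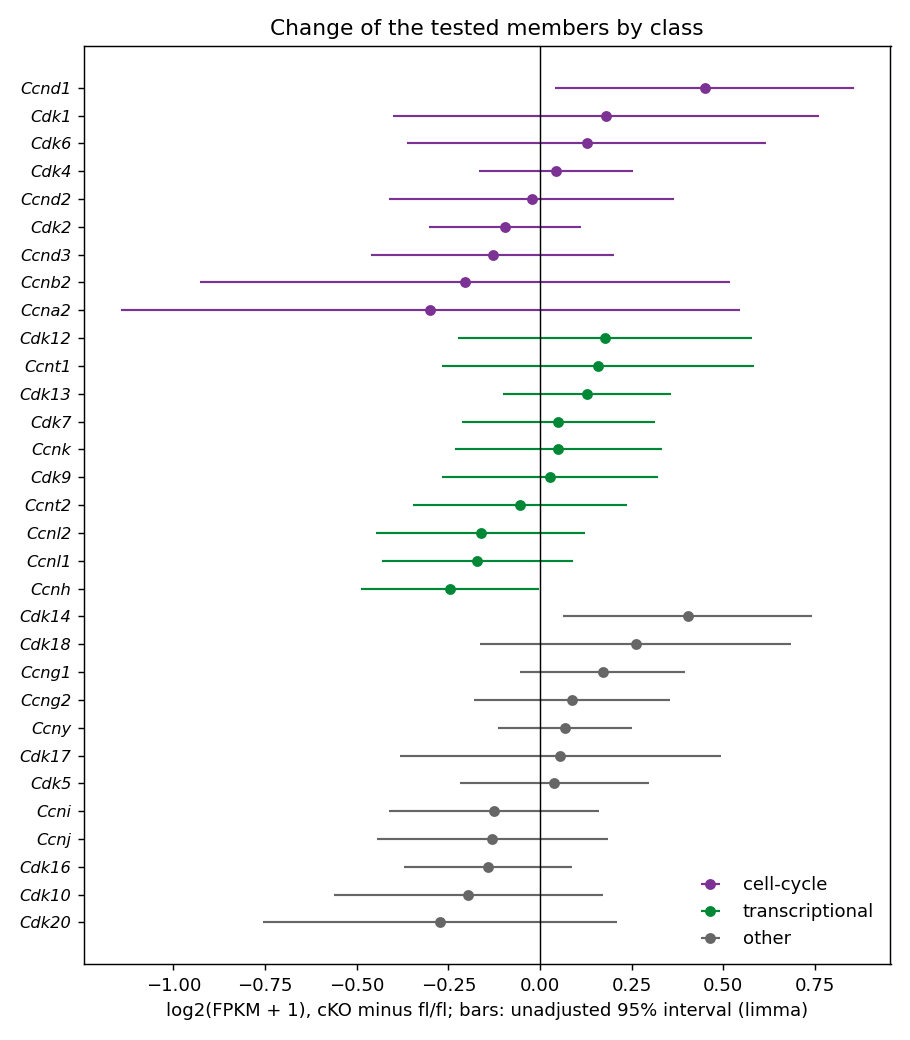
Difference in log2(FPKM + 1), cKO minus fl/fl, for the 31 tested members, coloured by role; bars are the unadjusted 95% interval from limma. The intervals of Ccnd1, Cdk14 and Ccnh exclude 0 before adjustment, and those of Ccna2 and Ccnb2 are the widest.

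Among the D cyclins, the growth-factor-responsive activators of Cdk4 and Cdk6, cyclin D1 averaged higher in cKO and cyclins D2 and D3 slightly lower, none of them passing the test. Ccnd1 read 33.1, 29.1 and 40.2 FPKM in cKO 1 to 3, against 26.0, 19.1 and 29.7 FPKM in fl/fl 1 to 3. The groups touched only where fl/fl 3 lay above cKO 2. The mean was 34.1 ± 5.62 FPKM in cKO and 24.9 ± 5.38 FPKM in fl/fl (SD, n = 3 each), a ratio of 1.37. Its log2 change of 0.45 (SE 0.18), with an unadjusted interval of 1.03- to 1.81-fold in FPKM + 1, did not pass in limma (adjusted p = 0.361). Ccnd2 read 20.7, 19.6 and 24.0 FPKM in cKO against 24.9, 16.4 and 25.1 FPKM in fl/fl. Ccnd3 read 30.8, 29.2 and 38.95 FPKM in cKO against 42.1, 34.5 and 31.8 FPKM in fl/fl. Their adjusted p-values in limma were 0.962 and 0.741. The files place Ccnd2 on 1 stretch with 9330179D12Rik and Ccnd3 with Bysl, so reads of those rows may not be fully separable.

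The make-up of the D cyclin pool, a ratio within each library that does not depend on library scaling, was examined after these values were seen. Ccnd1 made up 39.1%, 37.4% and 39.0% of the summed D cyclin FPKM in cKO 1 to 3, against 28.0%, 27.3% and 34.3% in fl/fl 1 to 3. The groups did not overlap, and the difference was 8.65 percentage points. The exact permutation test (two-sided) returned p = 0.1, and 3 hearts against 3 can reach no smaller value. With any 1 library, the replicate 3 hearts, Ccnd2 or Ccnd3 left out, the difference was 7.36 to 10.9 points. Ccnd2 held 24.3% ± 0.948 in cKO and 26.4% ± 2.81 in fl/fl, and Ccnd3 37.2% ± 0.703 in cKO and 43.8% ± 6.42 in fl/fl (SD, n = 3 each), both overlapping. Set against Ccnd2 alone, Ccnd1 made up 59.8% to 62.6% of the pair in cKO and 51.2% to 54.2% in fl/fl. Of 5 such shares examined, the 3 of Ccnd1 gave an exact permutation p of 0.1 (0.167 after Benjamini-Hochberg adjustment over the 5). These 3 use the same Ccnd1 values, so they are not separate results. Of the markers of other cell types, some lists summed higher in cKO and 1 lower. The 6 endothelial markers summed to 339.5 to 435.5 FPKM in cKO against 262.4 to 306 FPKM in fl/fl, and the 6 fibroblast markers to 893 to 1038 FPKM in cKO against 775.9 to 890 FPKM in fl/fl. Limma called 0 genes in either list, and none was at the floor throughout. The authors' deposited table gave the endothelial genes Kdr and Cdh5, both higher in cKO, q-values of 0.0075 and 0.049. It gave no other gene of either list a q-value under 0.05. The 4 smooth muscle markers summed to 557.1 to 669.1 FPKM in cKO against 178.1 to 216.7 FPKM in fl/fl, through Acta2 alone, while Myh11, Cnn1 and Tagln averaged lower in cKO. The 7 macrophage markers summed to 172.6 to 179 FPKM in cKO against 182.1 to 208.2 FPKM in fl/fl, mainly through C1qa and C1qb (ratios 0.888 and 0.820). Of these markers only C1qa was lower in each cKO library, and Csf1r and Mrc1 had ratios of 1.009 and 1.014. The part of any of these marker lists in the Ccnd1 values was not tested. In bulk RNA of this kind, fewer cells of a type and less RNA per cell cannot be told apart.

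**Figure D3:**
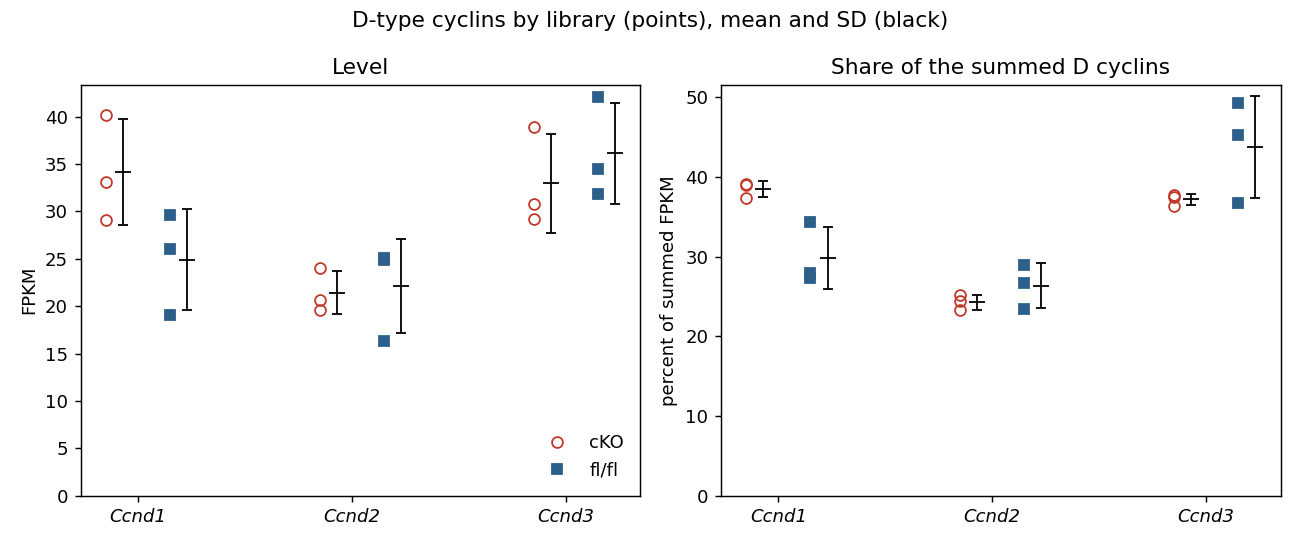
Level in FPKM (left) and percentage of the summed D cyclin FPKM (right) of Ccnd1, Ccnd2 and Ccnd3 in each library; open red circles are cKO, filled blue squares fl/fl, and black marks the mean and SD. The Ccnd1 share lies at 37.4% to 39.1% in cKO and at 27.3% to 34.3% in fl/fl.

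The kinase partners of the D cyclins overlapped between genotypes. Cdk4 read 47.6, 52.5 and 48.1 FPKM in cKO against 49.97, 49.2 and 44.6 FPKM in fl/fl, with an interval of -0.17 to 0.25 on the log2 scale. Cdk6 was far scarcer, at 2.84, 1.95 and 2.92 FPKM in cKO against 2.78, 1.42 and 2.71 FPKM in fl/fl. Cdk2, the partner of cyclins E and A, read 8.90, 8.44 and 8.26 FPKM in cKO against 9.34, 9.29 and 8.92 FPKM in fl/fl, without overlap but by a ratio of only 0.929 (adjusted p = 0.685 in limma). Its cyclins were scarce. Ccne1 read 0.382 to 0.766 FPKM in cKO and 0.479 to 1.35 FPKM in fl/fl, and Ccne2, which shares its stretch with Ints8, 0.562 to 0.826 FPKM in cKO and 0.701 to 1.08 FPKM in fl/fl. In both genes fl/fl 1 was highest.

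Inhibitors and targets of these kinases gave no call either. Of 8 CDK inhibitors 5 were tested and 0 passed, with 2 positive and 3 negative signs. Cdkn2c, which encodes the Cdk4 and Cdk6 inhibitor p18, read 12.6, 11.3 and 11.1 FPKM in cKO against 14.99, 16.3 and 13.1 FPKM in fl/fl, lower in each cKO library (log2 change -0.32, adjusted p = 0.290 in limma). Of 13 pocket proteins and E2F factors 9 were tested and 0 passed. The repressor E2f6 read 42.4, 44.7 and 42.5 FPKM in cKO against 51.1, 55.1 and 56.8 FPKM in fl/fl, with the smallest p of this list (log2 change -0.32, adjusted p = 0.207 in limma). Its dimer partner gene Tfdp1 also lay lower in each cKO library, at 14.7 to 16.3 FPKM against 17.4 to 17.96 FPKM in fl/fl. Of 11 regulators of these kinases by phosphorylation and degradation 9 were tested and 0 passed. A further pair of genes, chosen after their values were seen, set the replicate 3 hearts of both genotypes apart, as the clock genes did. Cdkn1a, which encodes p21, read 27.6 FPKM in cKO 3 and 15.8 FPKM in fl/fl 3, against 7.60 to 9.22 FPKM in the other 4 libraries. Wee1, a kinase that restrains Cdk1, read 3.17 FPKM in cKO 3 and 4.71 FPKM in fl/fl 3, against 11.7 to 16.0 FPKM in the other 4.

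For Ccna2, Ccnb1, Ccnb2, Ccnf and Cdk1, the mitotic members above the bottom of the range, the spread among fl/fl hearts was wider than the difference between the genotype means. Their promoters are known for CCAAT boxes, which bind the factor NF-Y, and for a CHR element, through which repressor and activator complexes time expression to late cell cycle. Promoter windows from RefSeq (build GRCm38.p6) covered 31 of the 39 members. Ccna2 was not among those covered, so its promoter was not searched. The 170 bases before the annotated start of the 4 mitotic members with at least 2 CCAAT boxes are shown because 3 of them also hold a CHR match, a pair of motifs few windows hold. Both strands were searched. Capitals mark the CCAAT box, which reads ATTGG when it lies on the other strand. Capitals also mark the CHR letters TTTGAA, and no CHR match overlaps a CCAAT box in these windows. All 4 genes lie on the minus strand, at chr13:100786487-100786656 (Ccnb1), chr9:70421555-70421724 (Ccnb2), chr17:24251410-24251579 (Ccnf) and chr10:69352913-69353082 (Cdk1), and are written 5′ to 3′ along the gene.
Ccnb1: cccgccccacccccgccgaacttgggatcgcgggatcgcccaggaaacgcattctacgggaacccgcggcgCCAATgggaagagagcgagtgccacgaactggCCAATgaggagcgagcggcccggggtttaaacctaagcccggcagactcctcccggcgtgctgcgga
Ccnb2: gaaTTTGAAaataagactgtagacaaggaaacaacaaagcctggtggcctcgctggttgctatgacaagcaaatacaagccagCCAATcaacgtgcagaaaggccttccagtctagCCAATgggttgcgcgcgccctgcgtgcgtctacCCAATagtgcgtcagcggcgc
Ccnf: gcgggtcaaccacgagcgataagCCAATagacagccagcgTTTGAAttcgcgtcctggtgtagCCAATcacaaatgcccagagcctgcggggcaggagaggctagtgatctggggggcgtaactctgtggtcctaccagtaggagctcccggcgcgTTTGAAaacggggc
Cdk1: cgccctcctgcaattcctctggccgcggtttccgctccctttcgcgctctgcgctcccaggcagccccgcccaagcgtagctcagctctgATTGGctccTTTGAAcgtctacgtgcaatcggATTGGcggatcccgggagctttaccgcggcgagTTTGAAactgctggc

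In the 250 bases before the start, at least 2 CCAAT boxes were found in 4 of 6 windows of the A, B and F cyclins and Cdk1, in 4 of 12 windows of members with other roles (Ccng1, Ccnj, Cdk10 and Cdk16), in 1 of 9 windows of transcriptional members and in 10.1% of all 32851 windows in the table. At least 2 CCAAT boxes together with TTTGAA were found for Ccnb2, Ccnf and Cdk1, for Cdk16 among the members with other roles, in 0 of 9 transcriptional windows and in 1.53% of all windows. The CCAAT boxes of Ccnb1 began 67 and 99 bases before the start, and those of Ccnb2 at 21, 54 and 87 bases. TTTGAA began 14 and 130 bases before the start in Ccnf, and 15 and 71 bases before it in Cdk1. In Ccnb2 its only match began at 167 bases, farther out than the CCAAT boxes. With or without CCAAT boxes, TTTGAA was found in 16.0% of all windows. These are matches of letters, and binding was not measured.

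Of these 5 genes, 4 read lowest in fl/fl 2 and 3 highest in fl/fl 1. Ccnb1, the main mitotic B cyclin, read 0.907, 0.396 and 1.16 FPKM in cKO 1 to 3, against 1.55, 0.0450 and 0.794 FPKM in fl/fl 1 to 3. Ccnb2 read 1.15, 0.440 and 1.30 FPKM in cKO against 2.47, 0.856 and 0.6997 FPKM in fl/fl. Cdk1 read 1.18, 0.942 and 1.83 FPKM in cKO against 1.64, 0.500 and 1.09 FPKM in fl/fl. The fl/fl range enclosed the cKO range of Ccnb1, and the groups overlapped for all 3 genes. Ccnf, the cyclin that directs a ubiquitin ligase, read 0.238, 0.288 and 0.434 FPKM in cKO against 1.10, 0.0655 and 0.514 FPKM in fl/fl. Ccna2 read 2.00, 1.34 and 2.47 FPKM in cKO against 3.38, 0.909 and 4.43 FPKM in fl/fl, with an adjusted p of 0.769 in limma. Its row shares a stretch with Exosc9, so its reads may not be fully separable. At levels this low the values can rest on few fragments.

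Other mitosis genes were counted in the same way. Of the 14 genes on that list, fl/fl 1 was highest for 8 and fl/fl 2 lowest for 12. Another library, cKO 3, was highest for 4, Prc1 among them. Cenpf was highest in cKO 1 and lowest in cKO 3. The proliferation marker Mki67 read 1.56, 1.04 and 1.95 FPKM in cKO against 3.996, 0.373 and 1.89 FPKM in fl/fl. Topoisomerase Top2a read 1.28, 1.14 and 2.48 FPKM in cKO against 5.58, 0.302 and 2.35 FPKM in fl/fl. Of the 7 tested mitosis genes 0 passed in limma (lowest adjusted p = 0.786), and of the 11 tested S phase genes 0 passed (lowest adjusted p = 0.549). Dividing thymocytes express these genes, and the thymocyte markers Rag1 and Dntt read 14.6 and 15.2 FPKM in fl/fl 1, and their highest values in any other library were 0.519 and 0.438 FPKM. Their part in the fl/fl 1 values was not tested. Without fl/fl 1 the log2 change was -0.15 for Ccna2 against -0.30 with it, and 0.37 for Cdk1 against 0.18, while Ccnb2 fell below the filter. Without fl/fl 2 it was -0.75 for Ccna2 and -0.036 for Cdk1, and without fl/fl 3 it was 0.004 for Ccna2. The part of the lung markers in the fl/fl 2 values was not tested. In none of these fits did limma call a member.

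**Figure D4:**
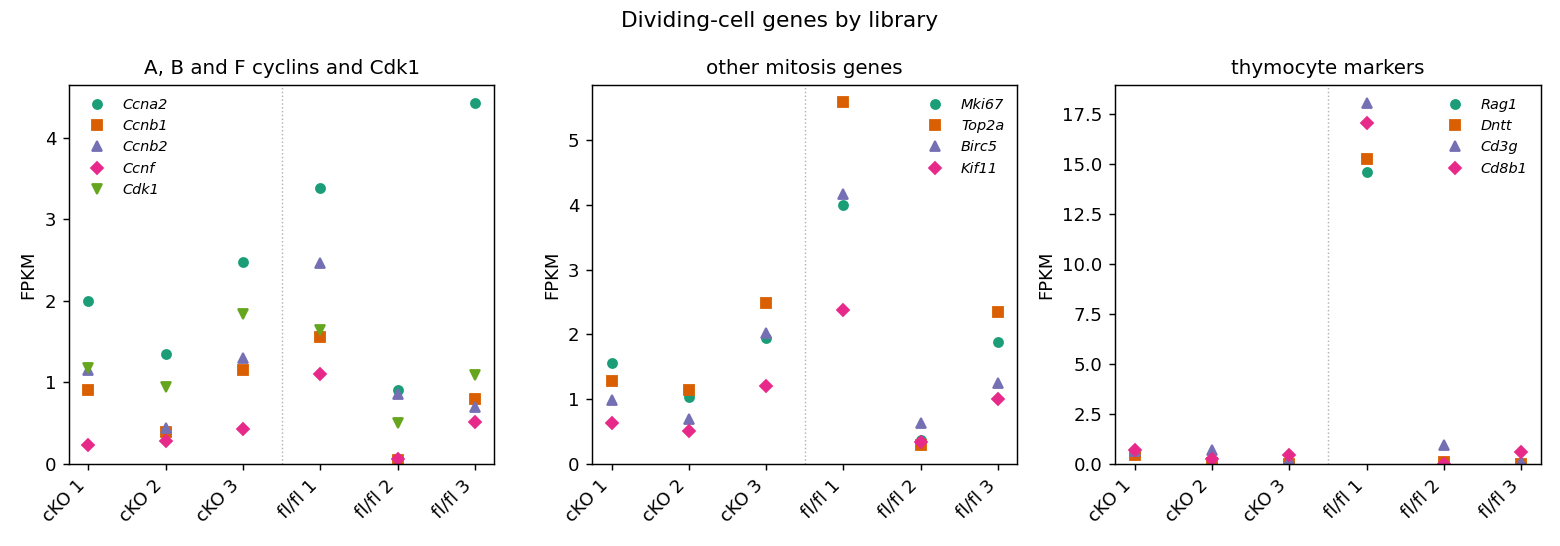
FPKM by library, cKO left of fl/fl, of the A, B and F cyclins and Cdk1 (left), 4 other mitosis genes (middle) and 4 thymocyte markers (right); 1 point per gene and library. The 4 mitosis genes in the middle are lowest in fl/fl 2 and highest in fl/fl 1, the library in which Rag1 reaches 14.6 FPKM.

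Of the transcriptional members, cyclin H was lower in each cKO library and its kinase was not. Cyclin H, Cdk7 and Mat1 (Mnat1) form the kinase of the general factor TFIIH, which phosphorylates the polymerase tail and also activates other cyclin-dependent kinases. Ccnh read 19.6, 19.1 and 16.8 FPKM in cKO 1 to 3, against 19.9, 23.2 and 23.4 FPKM in fl/fl 1 to 3. The gap between the groups was narrow, and fl/fl 1 lay just above cKO 1. The means were 18.5 ± 1.49 FPKM in cKO and 22.2 ± 1.96 FPKM in fl/fl (SD, n = 3 each), a log2 change of -0.25 (SE 0.11) that did not pass in limma (adjusted p = 0.389). Cdk7 read 5.56, 5.27 and 5.56 FPKM in cKO against 4.86, 4.89 and 6.03 FPKM in fl/fl, and Mnat1 7.45, 7.73 and 8.65 FPKM in cKO against 6.57, 9.03 and 10.4 FPKM in fl/fl. The Cdk7 row shares a stretch with Ccdc125. The TFIIH helicase Ercc3 lay above fl/fl in each cKO library, at 11.7 to 12.5 FPKM against 8.86 to 11.5 FPKM in fl/fl (adjusted p = 0.420 in limma). The summed cardiomyocyte markers, like Ccnh, did not overlap and lay lower in cKO. Actc1, on the same list, went the other way, at 10446 to 11177 FPKM in cKO against 8307 to 9546 FPKM in fl/fl. The part of these markers in the Ccnh values was not tested.

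P-TEFb releases paused polymerase, and the groups overlapped for each of its 3 subunit genes. Its kinase Cdk9 read 10.6, 9.68 and 9.48 FPKM in cKO against 9.70, 11.5 and 8.20 FPKM in fl/fl, with an interval of -0.27 to 0.32 on the log2 scale. Cyclin T1 (Ccnt1) read 6.22, 4.41 and 7.24 FPKM in cKO against 5.72, 4.10 and 5.77 FPKM in fl/fl, on a stretch shared with 9330020H09Rik. Cyclin T2 (Ccnt2) was the more abundant T cyclin in every library, at 14.5, 14.8 and 11.5 FPKM in cKO against 15.2, 14.7 and 12.5 FPKM in fl/fl. A pair of genes that restrain P-TEFb did separate the groups without passing the test. Hexim1, its inhibitor, read 10.3, 11.2 and 11.8 FPKM in cKO against 11.9, 13.6 and 12.8 FPKM in fl/fl (adjusted p = 0.463 in limma). Mepce, which caps the inhibitory 7SK RNA, read 11.5, 11.6 and 11.3 FPKM in cKO against 14.0, 15.4 and 12.6 FPKM in fl/fl (log2 change -0.26, adjusted p = 0.346 in limma). Another partner, Larp7, overlapped, at 17.6 to 19.9 FPKM in cKO and 18.7 to 21.8 FPKM in fl/fl. Of the 13 tested partners of the transcriptional kinases 0 passed in limma. The groups did not overlap for 5 of the 13 (38.5%, against 20.4% of all genes tested), 2 higher and 3 lower in cKO.

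The cyclin K kinases act during elongation and help express long genes of DNA repair. Cdk13 read 7.39, 7.53 and 7.19 FPKM in cKO against 7.07, 6.09 and 6.83 FPKM in fl/fl, higher in each cKO library on a stretch shared with Mir466i (log2 change 0.13, adjusted p = 0.614 in limma). Cdk12 read 4.28, 4.32 and 5.44 FPKM in cKO against 5.15, 3.02 and 4.06 FPKM in fl/fl. Ccnk read 15.5, 15.2 and 15.6 FPKM in cKO against 13.7, 18.0 and 13.4 FPKM in fl/fl, so that the cKO values fell within the fl/fl range. The L cyclins, partners of Cdk11 in splicing, both had negative signs. Ccnl1 read 16.7, 15.9 and 19.5 FPKM in cKO against 19.0, 18.2 and 21.8 FPKM in fl/fl, and Ccnl2 47.1, 44.4 and 37.4 FPKM in cKO against 43.7, 54.6 and 46.2 FPKM in fl/fl. Their log2 changes were -0.17 and -0.16, with adjusted p-values of 0.555 and 0.613 in limma. Their kinase Cdk11b, whose symbol the rule does not take, read 28.6 to 32.0 FPKM in cKO and 27.4 to 32.7 FPKM in fl/fl.

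**Figure D5:**
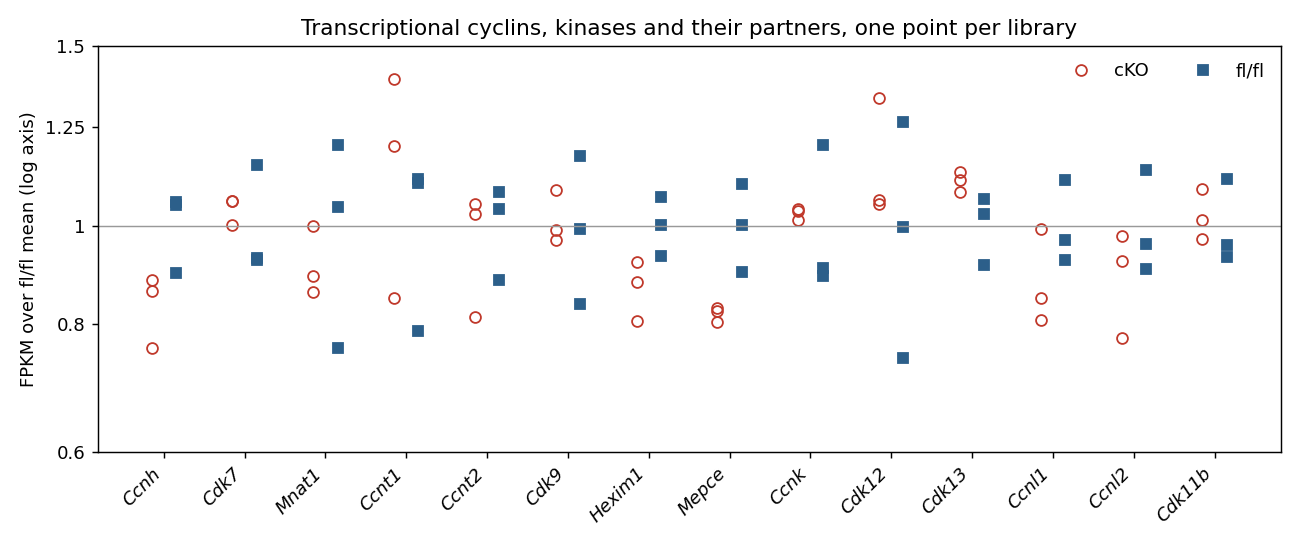
FPKM of transcriptional members and their partners divided by the mean of fl/fl (log axis), 1 point per library; open red circles are cKO and filled blue squares fl/fl. Ccnh, Hexim1 and Mepce lie lower and Cdk13 higher in each cKO library, none of them passing the test.

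Members grouped with neither the cell cycle nor transcription held the smallest unadjusted p of the family, that of Cdk14. Cdk14, a membrane-linked kinase of the PFTAIRE type that cyclin Y activates, read 3.97, 3.57 and 4.45 FPKM in cKO 1 to 3, against 3.36, 2.27 and 2.76 FPKM in fl/fl 1 to 3. Every cKO library lay above every fl/fl library, and the means were 3.997 ± 0.443 FPKM in cKO and 2.80 ± 0.543 FPKM in fl/fl (SD, n = 3 each), a ratio of 1.43. The log2 change of 0.40 (SE 0.15) did not pass in limma (adjusted p = 0.319). Its unadjusted interval was 1.04- to 1.67-fold in FPKM + 1, a smaller scale of change than the FPKM ratio at this level. The authors' deposited table gave Cdk14 a q-value of 0.143. The endothelial and fibroblast sums given above lay higher in cKO too, and their part in the Cdk14 values was not tested. Its partner cyclin Y (Ccny) lay close together, at 45.4, 44.1 and 43.2 FPKM in cKO against 42.4, 42.1 and 41.9 FPKM in fl/fl. That separation amounted to a ratio of 1.05 (adjusted p = 0.752 in limma). Cdk16, the other cyclin Y kinase, read 68.8, 69.8 and 67.9 FPKM in cKO against 70.7, 85.5 and 72.7 FPKM in fl/fl (log2 change -0.14, adjusted p = 0.577 in limma). Cdk18 averaged 10.9 ± 2.00 FPKM in cKO and 8.99 ± 2.02 FPKM in fl/fl, and Cdk17 9.70 ± 2.61 FPKM in cKO and 9.21 ± 1.74 FPKM in fl/fl (SD, n = 3 each).

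Cyclin G1, the most abundant member, read 521.95, 515.5 and 486.3 FPKM in cKO against 451.0, 433.6 and 468.5 FPKM in fl/fl. The groups did not overlap, but the ratio was 1.13 and limma did not call it (log2 change 0.17, adjusted p = 0.494). Cyclin G2 (Ccng2) averaged 14.6 ± 0.429 FPKM in cKO and 13.7 ± 1.97 FPKM in fl/fl, and Ccni 78.7 ± 7.48 FPKM in cKO and 86.2 ± 11.8 FPKM in fl/fl (SD, n = 3 each). Cdk5, a kinase best known from neurons, averaged 13.4 ± 0.995 FPKM in cKO and 13.0 ± 1.57 FPKM in fl/fl; of its activator genes, Cdk5r1 read at most 0.857 FPKM in any library and Cdk5r2 was listed at 0.01 FPKM in all 6. Cdk10 read 9.06 to 11.5 FPKM in cKO and 9.97 to 14.7 FPKM in fl/fl. Cdk20 averaged 2.26 ± 0.868 FPKM in cKO and 2.83 ± 0.189 FPKM in fl/fl, and Ccnj 2.89 ± 0.316 FPKM in cKO and 3.26 ± 0.452 FPKM in fl/fl (SD, n = 3 each). Cyclin O (Ccno), a cyclin of multiciliated cells, stood below the filter at 0.0919, 0.01 and 0.0472 FPKM in cKO against 0.202, 0.228 and 0.167 FPKM in fl/fl, lower in each cKO library. Among 17 related genes whose symbols fall outside the rule, 11 were tested and 0 passed. The smallest p was that of Cdkl3, at 1.22, 1.74 and 1.27 FPKM in cKO against 2.30, 2.80 and 1.89 FPKM in fl/fl (log2 change -0.46, adjusted p = 0.319 in limma).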

How the data were processed

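Expression was deposited by the authors as FPKM per gene and library and as a group FPKM per genotype. The submitters' processing notes name TopHat (1.0.0), Cufflinks and Cuffdiff as tools and mm10 as the build. The Ccnd1 row ends at base 152125830 of chromosome 7, past the last gene annotated on that chromosome in mm10 (145324086), so the build of the files' coordinates is not settled and none was combined with the reference. A p-value and q-value per gene come from the comparison table deposited by the authors. Values of 0.01 FPKM stand in place of 0, 1 row with a failed value was left out, and 27 rows whose names had become dates were kept unnamed. The sources used here do not say whether counting used strand. The labels give 3 hearts per genotype. Columns were matched to samples by the codes in the sample descriptions.

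Differences were tested here with limma 3.58.1 in R 4.3.3 (eBayes with an intensity trend, two-sided) on log2(FPKM + 1) where the mean reached 1 FPKM, and p-values were adjusted by Benjamini-Hochberg over all 12103 genes, with a threshold of 0.05. Members, roles and lists were chosen with earlier results of these data known. Values in every library are given for members called or not overlapping and for the G1, mitotic and transcriptional members. From each related list they are given for no more than 4 genes, taken by smallest p. Ccne1, Ccne2, Ccnf, Ccno, Mnat1, Hexim1, Larp7, Cdk11b, Cdk5r1 and Cdk5r2 were added for their roles after their values were seen. The script was tested on simulated data. No library was a duplicate of another. The values of 1 partner gene are not reported here. Alternatives covered the pseudocount, filter, scaling, variance trend, array weights, a replicate block, replicate 3 as a term, each library left out and the assignment of Ccnh, Cdk7 and Cdk10 to a role. Figures were drawn with matplotlib 3.10.9.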

Additional observations from a re-analysis of the deposited data

How the results depend on the processing

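No alternative, leaving out each library included, called any member in limma (0 to 4 had an unadjusted p under 0.05). Read numbers are unknown, so precision at low FPKM cannot be stated. The number of all genes changed, 71, was 14 with no filter, 38 with no trend, 213 with the replicate block, 123 with replicate 3 as a term and 13 within replicates 1 and 2, and 13 to 50 with 1 library left out. The replicate numbers were not taken as pairs, since cKO 1 correlated better with fl/fl 2 (0.152) than with fl/fl 1 (0.089). Same-numbered deviations correlated at 0.089, 0.271 and 0.429, and differently numbered ones at -0.333 to 0.152. The replicate 3 hearts, at 0.429, shared a low summed clock level, with Arntl and Npas2 high in both hearts. With the replicate block Ccnd1 had its lowest adjusted p, 0.0634 in limma, against 0.676 at its highest over the alternatives.

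The median log2 change of other members, 0.047, was -0.012 with no filter, -0.020 with array weights and -0.046 within replicates 1 and 2, and that of transcriptional members, 0.039, was -0.026 within replicates 1 and 2. With 1 library left out, medians ran from -0.088 to 0.073 for cell-cycle, -0.051 to 0.052 for transcriptional and -0.073 to 0.065 for other members. Signs turned in 27 of 518 values of single members, over 12 genes, while 19 of the 31, Ccnd1, Cdk14 and Ccnh among them, kept theirs. With array weights Ccnt2 was 0.00739, Cdk17 -0.090 and Cdk6 -0.00122. Within replicates 1 and 2 Ccng2 was -0.033, Ccnk -0.027, Cdk17 -0.015, Cdk5 -0.058 and Cdk9 -0.053. The cause was not tested. With 1 library left out, the 12 ran over these ranges: Ccna2 -0.75 to 0.00385, Ccnb2 -0.397 to 0.00495, Ccnd2 -0.216 to 0.0767, Ccng2 -0.0183 to 0.177, Ccnk -0.0204 to 0.179, Ccnt2 -0.135 to 0.0548, Cdk1 -0.0362 to 0.372, Cdk17 -0.137 to 0.177, Cdk4 -0.00592 to 0.0749, Cdk5 -0.0142 to 0.129, Cdk6 -0.0812 to 0.259 and Cdk9 -0.0817 to 0.136.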
